A study of Mus musculus with 4 samples.

Results

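Zinc leaves and enters the compartments of the secretory pathway through 2 families of membrane transporters. ZIP proteins, encoded by Slc39a genes, move zinc towards the cytosol, and ZnT proteins, encoded by Slc30a genes, move it out of the cytosol. The 8 genes described here are those listed for an endoplasmic reticulum (ER), Golgi or vesicle location: Slc39a7, Slc39a9, Slc39a11, Slc39a13, Slc30a5, Slc30a6, Slc30a7 and Slc30a9. They were chosen by name, but with earlier results of these data known. They are 8 of the 19938 genes that had a probe set of their own on the array.

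Zinc held in the ER and Golgi is a cofactor of enzymes that mature there, such as alkaline phosphatases, and of proteins that assist folding. ZIP7 (Slc39a7) releases zinc from the ER and Golgi into the cytosol, and ZnT5 with ZnT6, or ZnT7 alone, load it into the early secretory pathway. In the intestinal crypt, stem cells at the base renew the epithelium, and Paneth and goblet cells carry a heavy load of secreted protein.

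The data came from 4 Affymetrix arrays of cells sorted from small intestinal crypts of adult mice, 1 array for each combination of genotype and sorted fraction. Zip7 KO mice were Zip7 flox/flox and control mice were Zip7 flox/+. All mice, controls included, carried villin-CreERT2, which is active in the gut epithelium, and the Lgr5-EGFP-ires-CreERT2 allele, which marks stem cells for sorting. All received tamoxifen for 2 days before the crypts were taken. Recombination in the controls would remove 1 of the 2 copies of Zip7, and cells without either Cre, such as lymphocytes carried into a sort, would keep the gene in both genotypes. The 4 groups are called Zip7 KO Lgr5-Hi, Zip7 KO Lgr5-Med, control Lgr5-Hi and control Lgr5-Med after their labels, some of which write Lgr5-Mid for Lgr5-Med. The number of mice behind an array is not stated in the labels. With 1 array per group there is no replicate error, no difference was tested, and every difference below is one between 2 arrays on the log2 scale.

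Several properties of the whole arrays bear on the transporter values. The fraction labels run against the stem cell genes: Lgr5 stood at 7.93 and 11.24 on the Zip7 KO arrays labelled Lgr5-Hi and Lgr5-Med, and at 7.79 and 10.97 on the control arrays, and all 8 crypt base and stem cell markers were lower under the label Lgr5-Hi in both genotypes. All 10 Paneth and all 9 goblet markers were higher under that label in both genotypes, by medians of 1.72 and 1.22 in Zip7 KO and 1.02 and 1.08 in controls. The labels are kept as given. Epithelial markers were high on every array, with Epcam between 11.57 and 11.66. Xist stood at 5.59 and 5.43 on the Zip7 KO arrays and at 11.64 and 11.84 on the control arrays, and the Y-linked Eif2s3y at 8.12 and 8.11 against 4.10 and 4.24, so that sex and genotype cannot be told apart. The 12 lymphocyte and myeloid markers were all lower in Zip7 KO under both labels, with medians of -0.77 and -0.94. Paneth markers were lower in Zip7 KO for 9 of 10 under Lgr5-Hi (median -0.79) and 10 of 10 under Lgr5-Med (median -1.41), and goblet markers for 6 of 9 (median -0.24) and 8 of 9 (median -0.36). The part of these cell types in the genotype differences of the transporters was not tested. In such bulk samples fewer cells of a type and less RNA per cell cannot be told apart.

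Each of the 8 genes had exactly 1 probe set, with 1 gene symbol, and this holds for Slc39a7 too. All 8 lay above the floor for expression on all 4 arrays. For each array the floor was percentile 95 of its values for 1203 chemosensory receptor genes (olfactory, vomeronasal and trace amine types), and the 4 floors ranged from 6.10 to 6.25. The genes lay between 1.495 (Slc39a13 in Zip7 KO Lgr5-Med) and 3.59 (Slc30a7 in Zip7 KO Lgr5-Hi) above it. Because probe sets differ in their response, a level of one gene is not set against that of another, and each gene is followed across the arrays.

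The windows around RefSeq start sites are shown for 4 of the genes. The 2 ZnT genes with the largest genotype differences and the targeted gene are among them, and Slc39a13 shares a motif with Slc30a5. Each window runs from 250 bases before to 50 bases after a RefSeq start site on GRCm38.p6. Capitals mark matches to the unfolded protein response element TGACGTGG, the sequence known to be bound by XBP1, and to the core of the metal response element, TGCACNC or TGCGCNC, known to be bound by MTF1, each searched on both strands. The windows, on the minus strand, are chr13:100833378-100833677 for Slc30a5, chr2:91070266-91070565 for Slc39a13, chr3:116007357-116007656 for Slc30a7 and chr17:34031641-34031940 for Slc39a7.
Slc30a5: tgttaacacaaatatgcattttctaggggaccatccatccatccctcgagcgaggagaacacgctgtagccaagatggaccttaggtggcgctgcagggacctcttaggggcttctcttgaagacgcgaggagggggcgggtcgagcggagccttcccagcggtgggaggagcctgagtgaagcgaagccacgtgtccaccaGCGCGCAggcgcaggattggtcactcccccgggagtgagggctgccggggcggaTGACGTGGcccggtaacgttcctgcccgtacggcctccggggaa
Slc39a13: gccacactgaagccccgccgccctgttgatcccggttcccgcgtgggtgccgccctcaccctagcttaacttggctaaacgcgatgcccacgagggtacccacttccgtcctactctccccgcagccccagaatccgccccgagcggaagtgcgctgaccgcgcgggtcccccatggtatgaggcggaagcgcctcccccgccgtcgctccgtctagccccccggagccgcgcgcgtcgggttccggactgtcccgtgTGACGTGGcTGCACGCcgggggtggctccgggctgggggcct
Slc30a7: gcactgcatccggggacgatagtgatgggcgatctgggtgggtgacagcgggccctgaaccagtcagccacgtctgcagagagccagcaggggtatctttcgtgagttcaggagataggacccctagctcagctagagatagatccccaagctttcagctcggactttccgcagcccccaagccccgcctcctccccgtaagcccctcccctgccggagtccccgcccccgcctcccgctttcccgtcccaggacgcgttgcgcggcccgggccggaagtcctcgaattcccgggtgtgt
Slc39a7: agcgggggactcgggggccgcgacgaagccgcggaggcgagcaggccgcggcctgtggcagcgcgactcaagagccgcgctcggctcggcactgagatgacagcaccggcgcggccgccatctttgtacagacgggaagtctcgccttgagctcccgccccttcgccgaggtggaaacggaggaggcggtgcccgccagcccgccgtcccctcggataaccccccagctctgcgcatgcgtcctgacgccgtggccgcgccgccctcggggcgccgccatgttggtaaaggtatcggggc

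RefSeq windows were found for all 8 genes, 9 windows in all, since Slc39a11 has 2 start sites. TGACGTGG was present in the windows of Slc30a5, at bases 7 to 14 after the start site of the window, and of Slc39a13, at bases 9 to 16. It was present in 0.676% of the 32851 windows of all genes. The metal response element core matched in Slc30a5, in Slc39a13, where it spans bases 18 to 24 and does not overlap TGACGTGG, and in both windows of Slc39a11. The match was to the A form, TGCACNC, in Slc39a13 and a window of Slc39a11. It was to the G form, TGCGCNC, in Slc30a5 and the other window of Slc39a11. The A form was present in 12.6% and the G form in 15.4% of all windows, and the share with either form was not computed. The ER stress element, CCAAT followed by any 9 bases and CCACG, and its second form, ATTGG followed by any base and CCACG, matched in 0 of the 9 windows and in 0.119% and 0.0365% of all. A match describes letters and not binding.

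**Figure D1:**
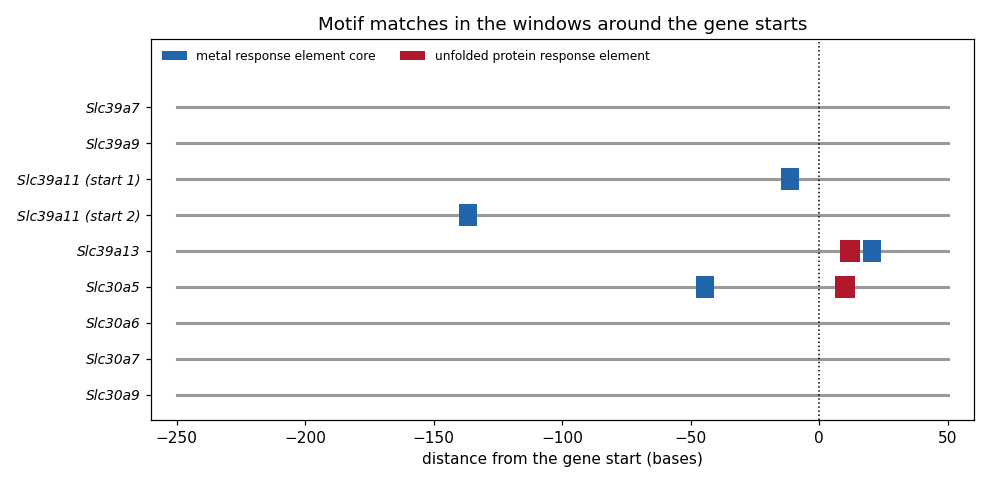
Positions of motif matches in the 9 windows of the 8 zinc transporter genes. The x axis gives the distance in bases from the RefSeq start site of each window, at the dotted line. The axis calls this site the gene start, though the gene's outermost start can lie elsewhere, as for Slc39a13 and Slc39a9. Red bars are matches of the unfolded protein response element, in Slc30a5 and Slc39a13, and blue bars are matches of the metal response element core, in Slc30a5, Slc39a13 and Slc39a11.

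Slc39a7, the gene targeted in these mice, was not lower in Zip7 KO than in control under the label Lgr5-Hi, and was lower under the label Lgr5-Med. Its levels were 9.02 in Zip7 KO Lgr5-Hi and 8.22 in Zip7 KO Lgr5-Med, against 8.92 in control Lgr5-Hi and 8.61 in control Lgr5-Med. Both Lgr5-Hi arrays were thus above both Lgr5-Med arrays, and the Zip7 KO arrays held the highest and the lowest value of the 4. The Zip7 KO minus control difference was 0.10 (1.07-fold) under Lgr5-Hi, with 66.7% of genes below it, and -0.39 under Lgr5-Med, with 5.34% of genes below it. No source used here places the probes of this single probe set relative to the deleted exons, so these values do not check the deletion.

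The genes next to Slc39a7 on chromosome 17 were set beside it. Rxrb, a retinoid X receptor gene on the opposite strand whose RefSeq window overlaps that of Slc39a7 by 221 bases, stood at 8.59 and 8.42 in Zip7 KO Lgr5-Hi and Lgr5-Med, against 8.50 and 8.71 in the controls. Its differences, 0.09 and -0.30, had the signs of those of Slc39a7 in both fractions. H2-Ke6, an enzyme gene on the other side, differed by -0.01 and -0.12, and Ring1, a Polycomb subunit gene beyond it, by -0.03 and -0.14. The microRNA gene Mir219a-1, between them, differed by -0.29 and -0.31, Col11a2 by 0.03 and 0.04, and H2-Oa was below the floor on all 4 arrays. Under the label Lgr5-Med, 4 of these 5 measured neighbours were lower in Zip7 KO, as was Slc39a7, and Col11a2 was higher. Of all 12257 genes compared there 44.2% were higher, and the median over all of them was -0.03. Under Lgr5-Hi, Rxrb and Col11a2 were higher, as was Slc39a7, and H2-Ke6, Ring1 and Mir219a-1 were lower. Of all genes 55.0% were higher there.

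The genotype comparison under the label Lgr5-Hi gave the clearest differences among the ZnT genes that load zinc into the secretory pathway. Slc30a7 (ZnT7) stood at 9.76 in Zip7 KO Lgr5-Hi against 9.36 in control Lgr5-Hi, and at 9.11 in Zip7 KO Lgr5-Med against 9.02 in control Lgr5-Med. The Zip7 KO Lgr5-Hi array was the highest of the 4, and the Zip7 KO value was above the control value under both labels. The differences were 0.40 (1.32-fold) under Lgr5-Hi and 0.08 under Lgr5-Med. In the first comparison Slc30a7 ranked 448 from the top of 12017 genes.

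Slc30a5 (ZnT5), a gene known from cultured cells to respond to the unfolded protein response, was also highest in Zip7 KO Lgr5-Hi. It stood at 9.43 in Zip7 KO Lgr5-Hi against 9.08 in control Lgr5-Hi, and at 9.10 in Zip7 KO Lgr5-Med against 8.97 in control Lgr5-Med. Both Zip7 KO arrays were above both control arrays, which was so for Slc30a9 too but for no other of the 8. For Slc30a5, though, Zip7 KO Lgr5-Med was only just above control Lgr5-Hi. After quantile normalisation these arrays stood 0.13 and 0.16 above control Lgr5-Med, so the order did not hold. The Zip7 KO minus control differences as deposited were 0.35 (1.28-fold) and 0.13, and the first of them ranked 666 from the top. Slc30a6, the partner of ZnT5 in a heterodimer, was at 8.63 and 8.48 in Zip7 KO Lgr5-Hi and Lgr5-Med, against 8.50 and 8.48 in the controls. Its 4 values spanned 0.16. Its Zip7 KO minus control differences were 0.135 and 0.003, beside 0.35 and 0.13 for Slc30a5. Whether the partner genes differ between the genotypes by unlike amounts was not tested.

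Slc30a9 varied least of the 8. Its product, ZnT9, has been placed mainly in mitochondria in human cells, so the location named for the set is less certain for it. It was at 8.40 and 8.41 in Zip7 KO Lgr5-Hi and Lgr5-Med, against 8.34 and 8.39 in the controls, a span of 0.07.

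Among the ZIP genes other than Slc39a7, the Zip7 KO values were above the control values by 0.01 to 0.13 under the label Lgr5-Hi. Under the label Lgr5-Med they were below the control values. Slc39a9, a transporter of the trans-Golgi and the cell surface, was at 9.69 and 9.26 in Zip7 KO Lgr5-Hi and Lgr5-Med, against 9.66 and 9.54 in the controls, differences of 0.03 and -0.28. Slc39a11, a Golgi and nuclear transporter, was at 9.10 and 8.63 in Zip7 KO Lgr5-Hi and Lgr5-Med, against 8.97 and 8.70 in the controls. Its differences were 0.13 and -0.07, the larger under Lgr5-Hi. Slc39a13, which supplies zinc from vesicles and is mutated in a human connective tissue disorder, was at 7.81 and 7.65 in Zip7 KO Lgr5-Hi and Lgr5-Med, against 7.80 and 7.75 in the controls. It differed by 0.01 and -0.10. All 4 ZIP genes, Slc39a7 included, had the same order of arrays: Zip7 KO Lgr5-Hi, control Lgr5-Hi, control Lgr5-Med and Zip7 KO Lgr5-Med, from high to low. None of the 4 ZnT genes had it. The first 2 places of this order for Slc39a9 and Slc39a13, and the last 2 for Slc39a11, turn with the scaling, as given below, and only Slc39a7 kept the order under all 3 scaling alternatives.

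**Figure D2:**
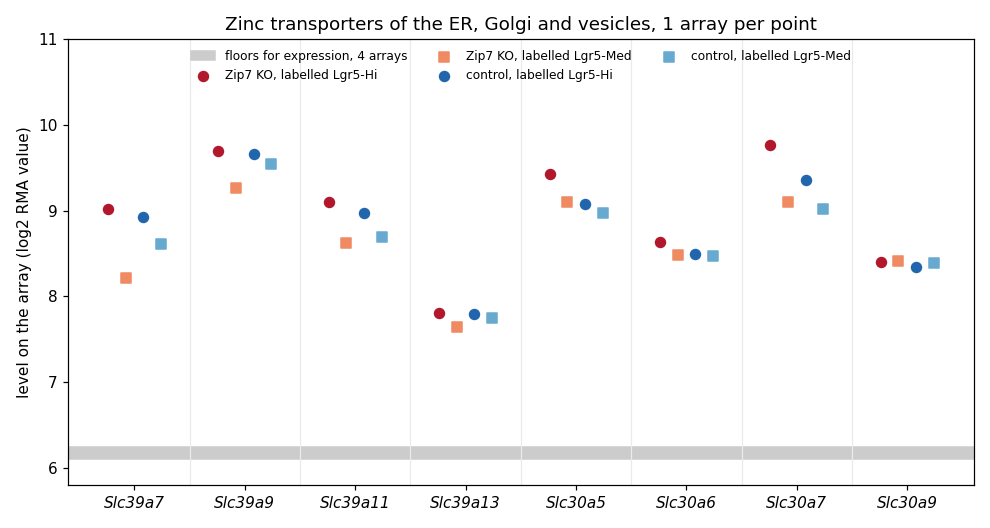
Level of each of the 8 genes on each array, as the deposited log2 value of its probe set. Circles are arrays labelled Lgr5-Hi and squares arrays labelled Lgr5-Med, red for Zip7 KO and blue for control, and the grey band holds the floors of the 4 arrays. All points lie above the band, and Slc39a7 spans 0.81 between its highest and lowest array, Slc30a9 0.07.

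Under the label Lgr5-Hi all 8 genes were higher in Zip7 KO, by 0.01 to 0.40, where 55.0% of all genes were higher. Their median was 0.12, beside 0.02 over all 12017 genes compared. After quantile normalisation it was 0.05, beside -0.02 over all genes, and after removal of the trend with level 0.04, beside -0.0002. The 4 ZnT genes had a median of 0.24 and the 4 ZIP genes one of 0.07. Only Slc30a5 and Slc30a7 passed 1.2-fold upwards, as 10.7% of all genes did, and 0 of the 8 passed it downwards, as 8.4% of all genes did. None reached 2-fold, which 0.483% of genes did in either direction. The differences of Slc39a9 and Slc39a13 are small enough to change sign with the scaling, to -0.04 and -0.01 after quantile normalisation. That scaling also turned the split of all genes past 1.2-fold to 901 higher and 1322 lower, beside 1285 and 1009 as deposited, and centring on the median gave 955 and 1318. Slc30a5 and Slc30a7 stayed past 1.2-fold under all 3 scaling alternatives.

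Under the label Lgr5-Med the 4 ZIP and the 4 ZnT genes of the set lay on opposite sides of 0. Thus 4 of the 8 genes were higher in Zip7 KO, where 44.2% of all genes were. The 4 ZIP genes were lower in Zip7 KO, by -0.39 to -0.07 with a median of -0.19, and the 4 ZnT genes were higher, by 0.003 to 0.13 with a median of 0.06. The split did not extend to the other zinc transporters above the floor, of which all 5 ZnT genes were lower, Slc30a1 by the most at -0.77, and 3 of 9 ZIP genes were higher, Slc39a8 by the most at 0.23. Over the 8 genes the median was -0.03, as it was over all 12257 genes compared. Slc39a7 and Slc39a9 passed 1.2-fold downwards, as 12.6% of all genes did, and 0 passed it upwards, as 6.22% did. None reached 2-fold, which 0.685% of genes did. Centring each array on its median moved Slc39a11 to 0.002 and left 1 gene, Slc39a7, past 1.2-fold. The same centring turned the split of all genes to 1423 higher and 954 lower, beside 762 and 1542 as deposited, so that the background of this comparison hangs on the scaling.

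**Figure D3:**
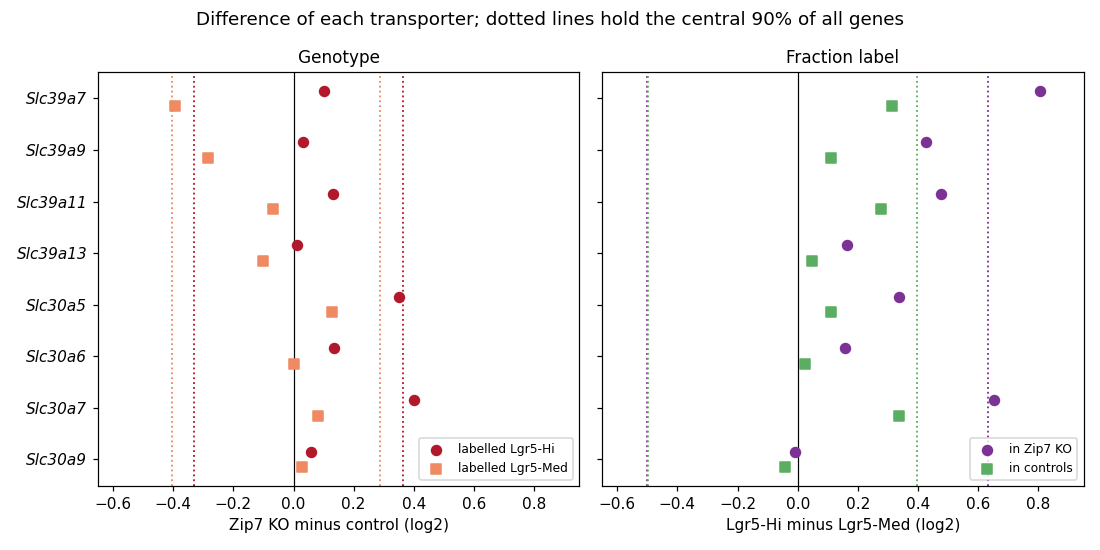
Difference of each gene on the log2 scale, Zip7 KO minus control under either fraction label in the left panel and Lgr5-Hi minus Lgr5-Med in either genotype in the right panel. Dotted lines in the colour of each comparison hold the central 90% of all genes. Slc30a7 under the label Lgr5-Hi (0.40, beyond 0.36) and the fraction differences of Slc39a7 (0.81) and Slc30a7 (0.65, beyond 0.63) in Zip7 KO lie outside these lines.

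Between the fractions, 7 of the 8 genes were higher under the label Lgr5-Hi in Zip7 KO, where 49.3% of all genes were. Slc39a7 led with 0.81 (1.75-fold), ahead of 97.1% of 12158 genes, followed by Slc30a7 with 0.65 (1.57-fold), Slc39a11 with 0.48, Slc39a9 with 0.43 and Slc30a5 with 0.34. These 5 passed 1.2-fold upwards, as 18.6% of all genes did, and 0 passed it downwards, as 16.5% did. None reached 2-fold, which 2.62% of genes did. The median of the 8 was 0.38, beside -0.005 over all genes.

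In controls 7 of the 8 were again higher under the label Lgr5-Hi, where 43.3% of all genes were. The sizes were smaller: Slc30a7 differed by 0.34, Slc39a7 by 0.31 and Slc39a11 by 0.28, and these 3 passed 1.2-fold upwards, as 10.6% of all genes did. None passed it downwards, as 18.2% did, and none reached 2-fold, which 1.19% did. The median of the 8 was 0.11, beside -0.04 over all 12252 genes. It was 0.18 both after median centring, beside 0.03 over all genes, and after removal of the trend with level, beside -0.003. Centring on the median turned the split of all genes past 1.2-fold to 1983 higher and 1535 lower, beside 1298 and 2234 as deposited, and removing the trend with level gave 1590 and 1781. Slc30a9, at -0.04, turned to 0.02 after quantile normalisation. The Paneth markers, summed on the linear scale and given as log2, were at 14.97 in Zip7 KO Lgr5-Hi and 13.70 in Zip7 KO Lgr5-Med, and at 15.47 and 14.82 in the controls. The goblet markers were at 15.26 and 13.85 in Zip7 KO, and at 15.21 and 14.19 in the controls. The part of these cells in the differences of the transporters was not tested.

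For each gene the Zip7 KO minus control value of the Lgr5-Med arrays was subtracted from that of the Lgr5-Hi arrays, which gives also the fraction difference in Zip7 KO minus that in controls. It was above 0 for all 8 genes, as for 60.5% of the 11848 genes above the floor in both comparisons. Slc39a7 had 0.49, with 96.0% of genes below it, Slc30a7 and Slc39a9 had 0.32 each, and these 3 passed 1.2-fold, as 16.6% of genes did. The other 5 had from 0.03 (Slc30a9) to 0.23 (Slc30a5). The value of Slc30a9 turned to -0.05 after quantile normalisation. The median of the 8 was 0.21, beside 0.06 over all genes. It was 0.10 after median centring, which moves the values of all genes by the same amount. That centring turned the split of all genes past 1.2-fold to 986 higher and 1873 lower, beside 1966 and 887 as deposited, and left 1 of the 8 genes, Slc39a7 at 0.39, past it. Over the same 4 arrays the enterocyte markers had a median of 0.54 with 11 of 11 above 0, the Paneth markers 0.59 with 10 of 10, and the unfolded protein response genes 0.35 with 10 of 10. The goblet markers had a median of 0.15 with 6 of 9 above 0, and the crypt base and stem cell markers one of -0.21 with 1 of 8. The part of these cell types and of this response was not tested, and the difference between the genotype differences has no test with 1 array per group.

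The transporters were also set beside 10 reference genes of the unfolded protein response, whose element is present in 2 of the windows. All 10 were higher in Zip7 KO under the label Lgr5-Hi, 9 of them past 1.2-fold, with a median of 0.65, and 9 of 10 were higher under Lgr5-Med, 6 of them past 1.2-fold, with a median of 0.29. Derl3, a component of ER-associated degradation, had the largest difference under both labels, at 3.73 and 1.68. Next were Creld2, an ER stress gene, at 1.61 under Lgr5-Hi, and Sdf2l1 at 0.59 under Lgr5-Med. The lowest were Xbp1 at 0.13 and -0.20 and Atf4 at 0.28 and 0.03. Slc30a5 and Slc30a7 thus lay below the medians of these genes under both labels. Slc39a13, whose window holds the same 8 letters as that of Slc30a5, differed by 0.01 and -0.10. Of 113 compared genes with TGACGTGG in a window, the 2 transporters among them, 17.7% were past 1.2-fold upwards and 5.31% downwards under Lgr5-Hi, beside 10.7% and 8.4% of all genes. Under Lgr5-Med 7.08% were past it upwards and 13.3% downwards, near the 6.22% and 12.6% of all genes. The median of these genes was 0.05 under Lgr5-Hi and -0.02 under Lgr5-Med. They were counted after the values were seen, and the part of the motif in the differences was not tested.

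Genes of thiol oxidation and zinc-dependent quality control in the ER differed in both directions. Of 7 compared under the label Lgr5-Hi, 3 passed 1.2-fold upwards and 1 downwards, as 10.7% and 8.4% of all genes did. Their median was 0.18. The ER oxidases Ero1b and Ero1a stood at 7.68 and 10.38 in Zip7 KO, against 6.81 and 9.73 in the control, and differed by 0.87 and 0.65. At the other end were the secreted-pathway oxidase Qsox1 at -0.42 and Sumf1, which activates sulfatases, at -0.13. Erp44, a chaperone that is known to bind zinc in the Golgi, was at 10.12 in Zip7 KO Lgr5-Hi and 9.69 in Zip7 KO Lgr5-Med, against 9.69 and 9.34 in the controls. It differed by 0.44 and 0.34, and was the only one of the 7 past 1.2-fold upwards under both labels. Under Lgr5-Med 6.22% of all genes passed it upwards. Under Lgr5-Med 1 of the 7, Sumf1 at -0.30, passed 1.2-fold downwards, as 12.6% of all genes did. There the disulfide isomerase P4hb was at -0.23 and Ero1b at 0.15, and the median of the 7 was -0.004. ZIP7 is known to be activated by casein kinase 2, whose catalytic subunit genes Csnk2a1 and Csnk2a2 differed by 0.33 and 0.29 under Lgr5-Hi and by 0.03 and 0.11 under Lgr5-Med. Csnk2b was not analysed here.

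Enzymes that take up zinc in the secretory pathway, or act at the cell surface or in the lysosome with zinc, were followed as a list of 28, of which 25 were compared. Under the label Lgr5-Hi 4 passed 1.2-fold upwards and 4 downwards, as 10.7% and 8.4% of all genes did. The median of the list was 0.06. The neprilysin gene Mme was at 9.72 in Zip7 KO against 9.05 in control, a difference of 0.67, and the carbonic anhydrase gene Car9 differed by 0.35. The ectonucleotidase gene Nt5e, at -0.48, and Car4, at -0.41, were at the other end. Under the label Lgr5-Med 2 passed upwards, the carboxypeptidase gene Cpm at 0.40 and Car12 at 0.31, and 11 downwards. Of all genes 6.22% and 12.6% did so, and the median of the list was -0.12. Car4 was at 8.86 in Zip7 KO against 10.36 in control, a difference of -1.50, and the brush border aminopeptidase gene Enpep differed by -0.83. The intestinal alkaline phosphatase gene Alpi, whose product depends on zinc loading by ZnT5 to ZnT7, was at 11.95 in Zip7 KO Lgr5-Hi and 10.78 in Zip7 KO Lgr5-Med, against 11.62 and 11.44 in the controls. Its differences were 0.33 and -0.65. Alpi, named here after its values were seen, and Enpep are enterocyte markers too, and all 11 enterocyte markers were lower in Zip7 KO under the label Lgr5-Med, with a median of -0.51, and 6 of 11 were higher under Lgr5-Hi, with a median of 0.02. Their levels, summed on the linear scale and given as log2, came to 14.97 in Zip7 KO Lgr5-Hi and 14.67 in Zip7 KO Lgr5-Med, against 14.92 and 15.05 in the controls, and the part of enterocytes in these differences was not tested.

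The remaining zinc transporters and the metallothioneins, 19 of 22 of them above the floor, held 4 genes past 1.2-fold upwards and 4 downwards under Lgr5-Hi (median 0.05) and 1 and 4 under Lgr5-Med (median -0.03). Of all genes 10.7% and 8.4% passed it under Lgr5-Hi, and 6.22% and 12.6% under Lgr5-Med. Slc39a10 at 0.51 and the metal-responsive transcription factor gene Mtf1 at 0.34 were highest and the zinc exporter genes Slc30a1 at -0.40 and Slc30a2 at -0.35 lowest under Lgr5-Hi, and Mt2 at 0.32 and Slc39a8 at 0.23 highest and Slc30a1 at -0.77 and Slc39a4 at -0.62 lowest under Lgr5-Med.

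**Figure D4:**
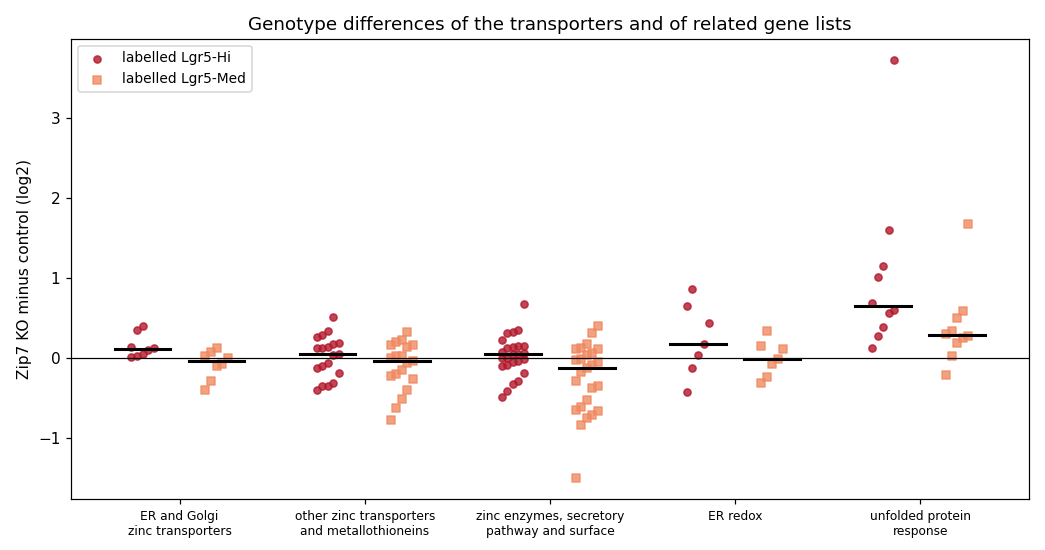
Zip7 KO minus control on the log2 scale for the 8 zinc transporters and for 4 related gene lists, with a point for each gene above the floor on either array of a comparison, circles for the label Lgr5-Hi and squares for Lgr5-Med, and a black bar at each median. The transporters have medians of 0.12 and -0.03, and the unfolded protein response genes 0.65 and 0.29.

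Genes with the pattern most like that of Slc39a7 and of Slc30a7, the transporter with the largest genotype difference, were found among 11312 genes above the floor on all 4 arrays. Likeness was the root mean square distance between the values of the 4 arrays after each gene's own mean was subtracted. Closest to Slc39a7 were Micall2, Gde1, Kcnk5, C2cd2l and Reg3a, at distances of 0.00342 to 0.0261, and 150 genes (1.33%) lay within 0.1. Closest to Slc30a7 were Akr1c14, Tm4sf5, Yipf5, Srpr and Alg12, at 0.0124 to 0.0304, and 195 genes (1.72%) lay within 0.1. With 4 arrays and this many genes close matches are frequent, so the names describe the arrays only.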

How the data were processed

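RNA of 4 sorted crypt cell fractions was hybridised to 1 Affymetrix array each. The authors deposited, for each probe set, log2 values made with RMA, per the submitters' processing notes. The log base was taken from the range of the values, 3.08 to 14.6, and neither the software version nor which arrays were normalised as 1 set is stated in the labels. Of 35557 probe sets 21789 were named by 1 gene symbol in the platform annotation, 1621 by several and 12147 by none; the first kind was used, and a gene with several probe sets took the one with the highest mean, which left 19938 genes. All 8 transporters matched RefSeq by Entrez ID.

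Genes above the floor on either array entered a comparison, receptor genes excluded. Differences, ranks and counts past 1.2-fold and 2-fold were computed with Python 3.11.15, pandas 2.3.3 and numpy 2.4.6, without a test or p-value, and tested on simulated data. The number of arrays limits the precision. Sequences are RefSeq's for GRCm38.p6, and protein sequences were not used here. Alternatives were quantile normalisation, median centring, removal of a loess trend (statsmodels 0.14.6), 2 other probe set rules, 2 other floors and 1.5-fold. Named were all 8 transporters, the 3 measured genes on either side of Slc39a7, the 5 most alike genes of 2 transporters and, per list, the 2 highest and 2 lowest genes of a comparison, with their values in the other comparison where useful. The count of genes with TGACGTGG was added after the values were seen. The transporters and lists were chosen with earlier results of these data known.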

Additional observations from a re-analysis of the deposited data

Results flagged for a closer look

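For the 4 ZIP genes the Zip7 KO minus control difference was above 0 under the label Lgr5-Hi and below 0 under the label Lgr5-Med. The difference between these differences was not tested, since each group is 1 array. It was 0.49 for Slc39a7, 0.32 for Slc39a9, 0.20 for Slc39a11 and 0.11 for Slc39a13. The opposite signs held under quantile normalisation, median centring and removal of the loess trend for Slc39a7. For Slc39a9 and Slc39a13 the value under Lgr5-Hi turned below 0 under all 3, and for Slc39a11 the value under Lgr5-Med turned above 0 under median centring.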

How the results depend on the processing

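With 1 array per group no array could be left out, and the number of arrays limits every value. No paired analysis was possible because no group has a second array. Over the 40 gene values, the 3 scalings moved none by more than 0.12. The 2 other probe set rules and 2 other floors could not move these values. Each transporter has 1 probe set, and a floor only selects which genes are compared. No difference past 1.2-fold changed sign. At 1.5-fold the transporters past the threshold numbered 0 upwards under Lgr5-Hi (2 at 1.2-fold), 0 downwards under Lgr5-Med (2), 2 between the fractions in Zip7 KO (5), 0 in controls (3) and 0 for the difference of the genotype differences (3). For that last value the count was 1 after quantile normalisation, median centring or loess removal. Its median over the 8 genes was 0.10 after centring, which moves all genes by the same amount, and 0.11 after loess removal, beside 0.21. Centring left 1 transporter past 1.2-fold downwards under Lgr5-Med. The cause was not tested. The median over the 8 genes under Lgr5-Med, -0.03, was 0.04 after centring, as was that over all genes compared. Slc30a9 between the fractions in controls, -0.04, was 0.02 to 0.04 under the 3 scalings. Over all genes, 1.5-fold left 130 higher and 111 lower under Lgr5-Hi, 52 and 257 under Lgr5-Med, 715 and 431 between the fractions in Zip7 KO and 282 and 385 in controls. Without a floor 1527 genes were past 1.2-fold downwards under Lgr5-Hi, beside 1009.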
